A study of Mus musculus with 6 samples.

Results

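The genes described here are 42 genes that mark macrophages and related myeloid cells, read by symbol from a table of 46959 genes in cells sorted from mouse islets. All 42 symbols were found in the table. The study asked how insulin-positive cells without the maturity marker urocortin 3 compare with mature beta cells and with the other islet cells. The immature group held cells positive for mCherry alone, the mature group cells positive for mCherry and eGFP, and the double negative group cells with neither reporter. Each group had 2 libraries. All animals were adult offspring of a cross of Ins1-H2b-mCherry with Ucn3-eGFP mice, so the groups share genotype and differ by gate. The Ins1 promoter drives a nuclear mCherry and the Ucn3 reporter drives eGFP. In all groups, islets of 10 to 12 mice per pool were kept overnight at 5.5 mM glucose before trypsin dissociation and sorting. Replicate 1 of each group is labelled male and replicate 2 female, while the design text speaks of females only.

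Macrophages are phagocytes that depend on the receptor CSF1R and the transcription factor PU.1. They take up dying cells and debris, break them down in lysosomes, make the C1q proteins that start the classical complement pathway, and sense antibody-coated targets through Fc receptors that signal through ITAM adaptors. Islets contain a resident population of them close to blood vessels and endocrine cells. None of these genes is a textbook beta cell marker, although several encode lysosomal or lipid proteins that other cell types also make.

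Depth differed between the gates, and it sets how well low values are known. The steps between low RPKM values (reads per length of gene, scaled to the total of the library) put 2393841 and 3448926 reads behind immature cells, 23718091 and 26824380 behind mature cells, and 22063880 and 22731664 behind double negative cells. A list of 10 beta cell markers made up 19.4% and 19.8% of summed RPKM in immature cells, against 51.8% and 53.7% in mature cells and 1.1% and 1.64% in double negative cells. Alpha cell markers made up 7.79% and 5.05% in immature cells, against 0.148% and 0.185% in mature cells and 41.6% and 40.1% in double negative cells.

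The summed level of the 42 genes was 2576 and 2703 RPKM in immature cells, against 150.9 and 150.3 RPKM in mature cells and 218.6 and 222.3 RPKM in double negative cells. Both immature libraries stood far above all the others, and the libraries of each gate lay close together. In bulk libraries such as these, fewer cells of a type and less RNA per cell cannot be told apart. With 2 pooled libraries per group, p-values reflect just the spread among these libraries, which may be technical.

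**Figure D1:**
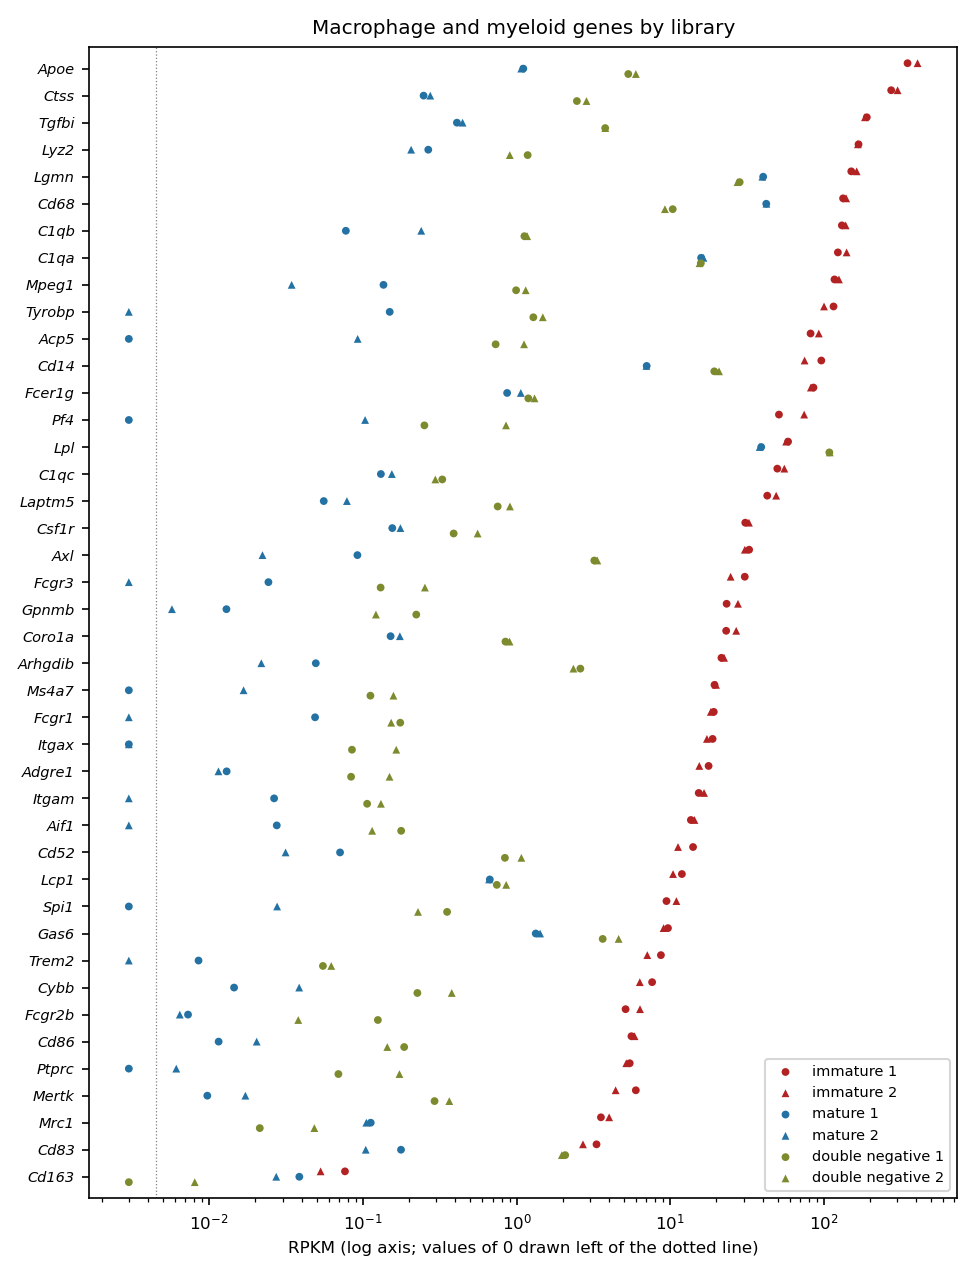
RPKM of the 42 macrophage and myeloid genes in each library on a log axis, ordered by their mean in immature cells, with circles for replicate 1 and triangles for replicate 2. The immature points lie to the right of the mature points for every gene, and to the right of the double negative points for every gene except Lpl, and Itgax is at 0 in both mature libraries.

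The stretches before the start sites of 3 genes are shown because they pair genes with high ratios in the results below, C1qb and Ctss, with Axl, which has a low one. SPI1, also called PU.1, is known to bind sites with the core letters GAGGAA, which was searched on both strands, so that TTCCTC is the same site on the opposite strand. The 250 bases before each start are given 5′ to 3′ on the strand of the gene (RefSeq, GRCm38.p6), with the core in capitals.
C1qb, chr4:136886201-136886450, minus strand: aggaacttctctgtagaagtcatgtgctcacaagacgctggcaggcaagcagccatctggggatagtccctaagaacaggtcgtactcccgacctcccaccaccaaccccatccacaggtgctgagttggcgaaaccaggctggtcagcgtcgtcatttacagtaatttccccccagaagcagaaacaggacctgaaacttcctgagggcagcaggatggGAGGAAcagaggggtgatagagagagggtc
Ctss, chr3:95526536-95526785, plus strand: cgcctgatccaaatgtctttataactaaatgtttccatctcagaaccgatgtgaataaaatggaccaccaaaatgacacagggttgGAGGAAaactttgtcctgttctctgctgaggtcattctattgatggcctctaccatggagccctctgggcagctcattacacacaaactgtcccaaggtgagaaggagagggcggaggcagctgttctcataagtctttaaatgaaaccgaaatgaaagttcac
Axl, chr7:25788734-25788983, minus strand: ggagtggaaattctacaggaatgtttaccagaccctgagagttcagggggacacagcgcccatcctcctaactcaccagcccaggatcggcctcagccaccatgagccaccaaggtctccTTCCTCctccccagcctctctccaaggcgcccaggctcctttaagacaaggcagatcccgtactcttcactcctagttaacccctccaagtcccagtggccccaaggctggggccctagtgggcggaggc
The core lay 30 bases before the C1qb start on the same strand, 164 bases before the Ctss start on the same strand, and 130 bases before the Axl start on the opposite strand. A second Ctss match on the opposite strand begins at the start itself, beyond the printed stretch, and is part of the longer form given below. Start sites with a RefSeq window, reaching from 250 bases before to 50 after the start, were found for 32 of the 42 genes. Of these, 18 genes (56.2%) had the core in at least 1 window, against 31.3% of all 27025 genes with a window. The longer form GAGGAAGT, which contains the core, occurred for 3 of the 32 genes (9.38%) and for 3.69% of all genes. Genes with low ratios such as Axl, Cd68 and Arhgdib were among those with the core, as were genes with high ratios such as C1qc and Trem2. A match of letters is a description and not a binding site.

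Against mature cells, the macrophage and myeloid genes were higher in immature cells across all their roles. Of the 42 genes, 41 reached 1 RPKM in at least 2 libraries and entered limma's test on log2(RPKM + 1), and only Cd163 did not. All 41 tested genes passed as higher in immature cells at an adjusted p of 0.05, with a median log2 difference of 4.25. Of all 13367 genes tested, 49.8% were called higher, with a median of 0.285, and 15.5% lower. Under median-ratio scaling the calls over all genes were 4099 higher and 4978 lower, against 6655 and 2073 on the deposited scale, while the 41 genes remained higher. The filter matters for this count, since 22 of the 42 genes reached 1 RPKM only in the immature libraries and could not have entered without being high there.

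Against double negative cells, 40 of the 41 tested genes were higher in immature cells and 1 was lower, with a median log2 difference of 3.79. Over all genes tested, 45.9% were called higher and 10.6% lower, with a median of 0.237. The exception was Lpl. The filter matters here too, since 22 of the 41 genes reached 1 RPKM only in the immature libraries and could not have entered without being high there. Without a filter, 42 genes were tested, of which 39 were higher, 1 was lower and 2 did not pass. The call of Cd83 was weak and was lost without either mature library or either double negative library. Mature against double negative cells showed a different pattern, with 2 of 41 genes higher (Cd68 and Lgmn), 19 lower and 20 that did not pass, and a median log2 difference of -0.34. The background was 23.1% higher and 31.2% lower, with a median of -0.084. With a pseudocount of 0.1 the lower calls numbered 33 of 41 and the median was -1.49, and with limma's voom on reads recovered from the RPKM values (at fitted gene lengths) they numbered 34 and the median was -3.02. The lower calls of Csf1r and Spi1 were lost without either mature library or double negative replicate 2, and that of Spi1 also without double negative replicate 1. The 3 comparisons share libraries and are not independent.

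C1q, the recognition protein of the classical complement pathway, is built from the products of 3 neighbouring genes on the minus strand of chromosome 4 (GRCm38), with C1qb at chr4:136880129-136886187, C1qc at chr4:136889804-136893065 and C1qa at chr4:136895917-136898803. C1qb measured 130.9 and 138.6 RPKM in immature cells, against 0.0775 and 0.24 RPKM in mature cells and 1.12 and 1.17 RPKM in double negative cells. C1qc measured 49.8 and 55.3 RPKM in immature cells, against 0.131 and 0.154 RPKM in mature cells and 0.329 and 0.296 RPKM in double negative cells. C1qa measured 123.3 and 140.5 RPKM in immature cells, against 15.9 and 16.4 RPKM in mature cells and 15.8 and 15.5 RPKM in double negative cells. C1qa and C1qb had similar levels in immature cells and lay far apart elsewhere, since C1qa kept a level in mature and double negative libraries, where the other two were near 1 RPKM or below. Within a library, C1qb stood at 1.06 and 0.986 times C1qa in immature cells, against 0.00488 and 0.0146 times in mature cells and 0.0711 and 0.0755 times in double negative cells. C1qa lay above double negative cells by a log2 difference of 2.99 (SE 0.07, limma adjusted p = 6.38e-06) and C1qb by a log2 difference of 5.98 (SE 0.09, limma adjusted p = 2.64e-06). Between mature and double negative cells C1qa had a log2 difference of 0.04 (SE 0.07, limma adjusted p = 0.655), while C1qb was lower in mature cells, with a log2 difference of -0.89 (SE 0.09, limma adjusted p = 0.000518). No other gene of the annotation overlaps C1qa, and its values rest on 307 and 504 reads in immature cells, against 392 and 459 in mature cells and 363 and 367 in double negative cells. The ratio of immature to double negative cells was 168 for C1qc, 117 for C1qb and 8.42 for C1qa.

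After Apoe, the highest of the 42 genes in immature cells were 4 lysosomal or secreted products, Ctss, Tgfbi, Lyz2 and Lgmn. Ctss (chr3:95526786-95556403, plus strand), the protease cathepsin S that trims the MHC class II invariant chain, measured 274.1 and 301.7 RPKM in immature cells, against 0.248 and 0.275 RPKM in mature cells and 2.47 and 2.85 RPKM in double negative cells. Lyz2 (chr10:117277331-117282321, minus strand), the lysozyme of myeloid cells, measured 168 and 166.5 RPKM in immature cells, against 0.266 and 0.206 RPKM in mature cells and 1.18 and 0.903 RPKM in double negative cells. Mpeg1, the pore-forming protein perforin-2, measured 117.2 and 125.3 RPKM in immature cells, against 0.136 and 0.0344 RPKM in mature cells and 0.993 and 1.15 RPKM in double negative cells. In these 3 genes the immature libraries were above the double negative by a factor of 108 (Ctss), 160 (Lyz2) and 113 (Mpeg1), and the mature libraries lay below the double negative. Lyz2 has a close copy, Lyz1, and how reads shared by both were counted is not given in the sources used here.

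Acp5, the tartrate-resistant acid phosphatase of osteoclasts and macrophages, measured 81.9 and 92.6 RPKM in immature cells, against 0 and 0.0925 RPKM in mature cells and 0.731 and 1.12 RPKM in double negative cells. Tgfbi, a secreted matrix protein, measured 190.2 and 185 RPKM in immature cells, against 0.409 and 0.446 RPKM in mature cells and 3.77 and 3.78 RPKM in double negative cells. Gpnmb, a glycoprotein of lysosome-rich phagocytes, measured 23.3 and 27.6 RPKM in immature cells, against 0.0129 and 0.00572 RPKM in mature cells and 0.223 and 0.122 RPKM in double negative cells. All of them were low outside the immature gate, with Gpnmb resting on 3 reads over both mature libraries and 50 over both double negative ones. Tgfbi had the lowest ratio of the 3 genes at 49.7, with a 95% counting interval of 44.9 to 54.8, and Gpnmb the highest at 148 (113 to 205). These intervals, here and below, cover counting error only.

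Cd68 (chr11:69664213-69666153, minus strand), a glycoprotein of the lysosomal membrane, measured 133.3 and 139.6 RPKM in immature cells, against 42.2 and 42.3 RPKM in mature cells and 10.4 and 9.24 RPKM in double negative cells. Lgmn (chr12:102394084-102439813, minus strand), the lysosomal protease legumain, measured 150.7 and 163.4 RPKM in immature cells, against 40.3 and 39.8 RPKM in mature cells and 28.3 and 27.4 RPKM in double negative cells. These were the only genes of the 42 called higher in mature than in double negative cells, with log2 differences of 2.0 (SE 0.07, limma adjusted p = 1e-05) for Cd68 and 0.51 (SE 0.06, limma adjusted p = 0.00072) for Lgmn. Immature cells were nevertheless above mature cells, by 1.67 (SE 0.07, limma adjusted p = 1.05e-05) for Cd68 and by 1.95 (SE 0.06, limma adjusted p = 3.65e-06) for Lgmn. The immature to double negative ratio was 13.9 for Cd68 and 5.64 for Lgmn, far under those of the other lysosomal genes.

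The lipid-handling genes went separate ways. Apoe, the apolipoprotein that macrophages secrete to carry lipid, measured 350.2 and 406.9 RPKM in immature cells, against 1.11 and 1.07 RPKM in mature cells and 5.33 and 5.98 RPKM in double negative cells, the highest immature values of the 42 genes. Lpl (chr8:68880491-68907448, plus strand), the lipase that releases fatty acids from lipoproteins, measured 58.5 and 56.8 RPKM in immature cells, against 39.1 and 38.2 RPKM in mature cells and 108.5 and 109.2 RPKM in double negative cells. Lpl was highest in double negative and lowest in mature cells, with no overlap between any 2 groups. Its log2 difference of immature minus double negative was -0.91 (SE 0.05, limma adjusted p = 5.17e-05), and that of immature minus mature was 0.56 (SE 0.05, limma adjusted p = 0.000157). Apoe exceeded double negative cells by a log2 difference of 5.83 (SE 0.09, limma adjusted p = 2.64e-06). Over both libraries of a group, Lpl rests on 2287 reads in immature cells, against 13293 in mature and 33215 in double negative cells.

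Among surface receptors, Csf1r, the receptor for the growth factors CSF1 and IL34, measured 30.8 and 32.5 RPKM in immature cells, against 0.155 and 0.175 RPKM in mature cells and 0.39 and 0.558 RPKM in double negative cells. Adgre1, an adhesion receptor that is the classical mouse macrophage marker, measured 17.8 and 15.5 RPKM in immature cells, against 0.013 and 0.0115 RPKM in mature cells and 0.0838 and 0.149 RPKM in double negative cells. Ms4a7, a tetraspan membrane protein, measured 19.4 and 19.9 RPKM in immature cells, against 0 and 0.0167 RPKM in mature cells and 0.112 and 0.158 RPKM in double negative cells. Each of these reached 1 RPKM only in the immature libraries, and the mature values of Adgre1 and Ms4a7 rest on 2 reads each. The ratio to double negative cells was 66.8 for Csf1r (95% counting interval 54.6 to 82.8), 143 for Adgre1 (86.2 to 244) and 145 for Ms4a7 (98.7 to 223), so the interval of Csf1r lies below those of the other two.

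Cd14, the co-receptor for bacterial lipopolysaccharide, measured 96.2 and 74.9 RPKM in immature cells, against 7.03 and 7 RPKM in mature cells and 19.4 and 20.8 RPKM in double negative cells. Pf4, a chemokine of platelets and some macrophages, measured 51 and 74.4 RPKM in immature cells, against 0 and 0.103 RPKM in mature cells and 0.251 and 0.854 RPKM in double negative cells. Cd14 kept a level in every library and had a ratio of 4.26 to double negative cells, with a log2 difference of 2.03 (SE 0.12, limma adjusted p = 8.17e-05). Pf4 had the largest gap between immature libraries of the 42 genes, the second being 1.46 times the first, against a median of 1.12 times between the higher and the lower library over the 42, of which 22 were higher in the second library and 20 in the first. Ppbp, a platelet gene that lies in the same chemokine family, stood at 5.01 and 8.3 RPKM in immature cells, against 0 in both mature libraries and 0 and 0.244 RPKM in double negative cells, and the 6 red cell and platelet markers together summed to 5.4 and 13 RPKM in immature cells, against 0.288 and 0.245 RPKM in mature cells and 0.386 and 0.739 RPKM in double negative cells. In the immature libraries 4 and 2 of the 6 were listed at 0. Platelet genes other than Ppbp had other patterns. Gp9 measured 0 and 0 RPKM in immature cells, against 0.191 and 0.127 RPKM in mature cells and 0.0514 and 0 RPKM in double negative cells. Itga2b measured 0.383 and 0.266 RPKM in immature cells, against 0.0618 and 0.103 RPKM in mature cells and 0.316 and 0.403 RPKM in double negative cells. The part of platelets in the Pf4 values was not tested.

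The scavenger receptors were among the least abundant of the 42 genes. Mrc1, the mannose receptor of tissue macrophages, measured 3.54 and 4 RPKM in immature cells, against 0.113 and 0.105 RPKM in mature cells and 0.0213 and 0.0483 RPKM in double negative cells. Cd163, the haemoglobin scavenger receptor, measured 0.0765 and 0.0531 RPKM in immature cells, against 0.0386 and 0.0273 RPKM in mature cells and 0 and 0.00806 RPKM in double negative cells. Mrc1 was low but higher in immature than in double negative cells, by a log2 difference of 2.20 (SE 0.10, limma adjusted p = 4.19e-05). Mrc1 reached 1 RPKM only in the immature libraries and could not have entered the test without being high there. Cd163 was near 0 everywhere, with 2 reads in immature cells, against 9 in mature cells and 1 in double negative cells, and was not tested.

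The Fc receptors and ITAM adaptors had the narrowest range of ratios among the role groups with 3 or more members. Fcer1g, the gamma chain that carries an ITAM for several Fc receptors, measured 85.6 and 82.3 RPKM in immature cells, against 0.868 and 1.07 RPKM in mature cells and 1.19 and 1.31 RPKM in double negative cells. Tyrobp, the ITAM adaptor DAP12, measured 115.5 and 100.2 RPKM in immature cells, against 0.149 and 0 RPKM in mature cells and 1.29 and 1.48 RPKM in double negative cells. Trem2, a lipid-sensing receptor that signals through DAP12, measured 8.7 and 7.09 RPKM in immature cells, against 0.00852 and 0 RPKM in mature cells and 0.055 and 0.0623 RPKM in double negative cells. Per length, both adaptors stood above Trem2 in the immature and double negative libraries, and Trem2 rests on 1 read in mature and 13 in double negative cells.

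Fcgr1, the high-affinity IgG receptor, measured 19.2 and 18.4 RPKM in immature cells, against 0.0489 and 0 RPKM in mature cells and 0.175 and 0.153 RPKM in double negative cells. Fcgr3, an activating receptor of lower affinity, measured 30.6 and 24.7 RPKM in immature cells, against 0.0243 and 0 RPKM in mature cells and 0.131 and 0.253 RPKM in double negative cells. Fcgr2b, the inhibitory IgG receptor, measured 5.12 and 6.36 RPKM in immature cells, against 0.00728 and 0.00644 RPKM in mature cells and 0.125 and 0.038 RPKM in double negative cells. The 3 Fc receptors reached 1 RPKM only in the immature libraries and could not have entered the test without being high there. Fcgr2b and Fcgr3 have similar extracellular sequences, and how reads shared between them were counted is not given in the sources used here. Ratios to double negative cells ran from 67.1 (Fcer1g) to 144 (Fcgr3), all 6 within 2-fold of their median of 96.3. The log2 differences of immature minus double negative ran from 2.63 (Fcgr2b) to 5.51 (Tyrobp), with SE between 0.08 and 0.13 and limma adjusted p of at most 4.4e-05.

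Receptors and ligand of apoptotic cell clearance had low ratios. Axl (chr7:25757273-25788705, minus strand), a receptor tyrosine kinase for dying cells, measured 32.6 and 30.6 RPKM in immature cells, against 0.0921 and 0.0222 RPKM in mature cells and 3.21 and 3.36 RPKM in double negative cells. Mertk, a related receptor of tissue macrophages, measured 5.97 and 4.41 RPKM in immature cells, against 0.00972 and 0.0172 RPKM in mature cells and 0.293 and 0.365 RPKM in double negative cells. Gas6 (chr8:13465374-13494490, minus strand), the secreted protein that bridges phosphatidylserine to both, measured 9.67 and 9.06 RPKM in immature cells, against 1.33 and 1.42 RPKM in mature cells and 3.64 and 4.62 RPKM in double negative cells. All 3 were highest in immature cells and lowest in mature cells, with ratios to double negative cells of 9.63 for Axl (95% counting interval 8.68 to 10.6), 15.8 for Mertk (11.3 to 21) and 2.27 for Gas6 (1.85 to 2.72). Per length, Gas6 stood at 0.296 and 0.296 times Axl in immature cells and at 1.13 and 1.37 times Axl in double negative cells. Gas6 was thus below Axl in immature cells and above it in double negative cells. Relative to Mertk, Gas6 was above in both gates, at 1.62 and 2.05 times in immature cells and 12.4 and 12.6 times in double negative cells. Gas6 was higher in immature than in double negative cells by a log2 difference of 1.02 (SE 0.11, limma adjusted p = 0.000791). Gas6 overlaps Tmem255b on the other strand, and the library kit does not keep the strand.

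Integrins and costimulatory molecules spanned a 97.3-fold range of ratios. Itgam, the integrin chain CD11b, measured 15.3 and 16.6 RPKM in immature cells, against 0.0265 and 0 RPKM in mature cells and 0.107 and 0.131 RPKM in double negative cells. Itgax, the integrin chain CD11c, measured 18.9 and 17.3 RPKM in immature cells, against 0 and 0 RPKM in mature cells and 0.0849 and 0.165 RPKM in double negative cells. Cd86, a costimulatory ligand for T cells, measured 5.59 and 5.86 RPKM in immature cells, against 0.0115 and 0.0204 RPKM in mature cells and 0.186 and 0.144 RPKM in double negative cells. The integrins were 134 (Itgam) and 145 (Itgax) times the double negative level, and Cd86 34.7 times, with a counting interval of 22.9 to 55.1 that lies below those of both integrins. Itgax was listed at 0 in both mature libraries, which allows up to 3 reads, or 0.0263 and 0.0233 RPKM, if these zeros are counts.

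Cd83, a surface protein of activated dendritic and B cells, stayed under 5 RPKM and measured 3.31 and 2.71 RPKM in immature cells, against 0.177 and 0.104 RPKM in mature cells and 2.07 and 1.97 RPKM in double negative cells. Its immature and double negative values differed little, with a ratio of 1.49 (95% counting interval 1 to 2.09) and a log2 difference of 0.40 (SE 0.11, limma adjusted p = 0.0256). Under quantile normalization the log2 difference was -0.09 (limma adjusted p = 0.52). Mature cells were lower than both, and the log2 difference of mature minus double negative was -1.41 (SE 0.11, limma adjusted p = 0.000197).

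Spi1, which encodes the transcription factor PU.1, measured 9.46 and 11 RPKM in immature cells, against 0 and 0.0277 RPKM in mature cells and 0.353 and 0.229 RPKM in double negative cells. Cybb, the catalytic subunit of the phagocyte NADPH oxidase, measured 7.62 and 6.34 RPKM in immature cells, against 0.0145 and 0.0385 RPKM in mature cells and 0.226 and 0.379 RPKM in double negative cells. Both reached 1 RPKM only in the immature libraries. Their ratios to double negative cells were 35.1 for Spi1 (95% counting interval 24.7 to 53) and 23.1 for Cybb (17.4 to 29.6). Spi1 exceeded double negative cells by a log2 difference of 3.12 (SE 0.11, limma adjusted p = 1.92e-05).

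The pan-leukocyte genes are shared by macrophages, lymphocytes and other blood cells. Laptm5, a lysosomal membrane protein, measured 42.8 and 48.9 RPKM in immature cells, against 0.0556 and 0.0787 RPKM in mature cells and 0.754 and 0.906 RPKM in double negative cells. Ptprc, the leukocyte common antigen CD45, measured 5.45 and 5.18 RPKM in immature cells, against 0 and 0.00611 RPKM in mature cells and 0.0693 and 0.173 RPKM in double negative cells. Coro1a, an actin regulator, measured 23.1 and 26.9 RPKM in immature cells, against 0.151 and 0.174 RPKM in mature cells and 0.847 and 0.901 RPKM in double negative cells. These 3 genes had ratios to double negative cells of 55.3, 43.9 and 28.6 in that order, and reached 1 RPKM only in the immature libraries.

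Aif1, the calcium-binding protein IBA1 of macrophages and microglia, measured 13.6 and 14.4 RPKM in immature cells, against 0.0275 and 0 RPKM in mature cells and 0.177 and 0.115 RPKM in double negative cells. Lcp1, the actin-bundling protein L-plastin, measured 11.9 and 10.4 RPKM in immature cells, against 0.67 and 0.663 RPKM in mature cells and 0.744 and 0.856 RPKM in double negative cells. Both had similar levels in immature cells, but Aif1 had a ratio of 95.8 to double negative cells (95% counting interval 50.8 to 206) and Lcp1 a ratio of 14 (12.1 to 15.8), which do not overlap.

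Arhgdib, a signalling regulator of blood cells, measured 21.5 and 22.4 RPKM in immature cells, against 0.0494 and 0.0218 RPKM in mature cells and 2.6 and 2.35 RPKM in double negative cells. Cd52, a short lymphocyte and monocyte surface peptide, measured 14.1 and 11.2 RPKM in immature cells, against 0.071 and 0.0314 RPKM in mature cells and 0.84 and 1.07 RPKM in double negative cells. They had low ratios, at 8.89 for Arhgdib (95% counting interval 7.31 to 10.9) and 13.2 for Cd52 (9.04 to 18.7), and both were near 0 in mature cells. Per length, Arhgdib stood at 0.184 and 0.179 times Mpeg1 in the immature libraries and at 2.62 and 2.05 times Mpeg1 in the double negative libraries. Arhgdib was thus below Mpeg1 in immature cells and above it in double negative cells. Arhgdib, Cd52, Coro1a and Lcp1 each overlap another gene on the opposite strand. So do Gas6 and Mertk, and genes with higher ratios, namely Acp5 at 94.3, Fcgr2b at 70.3 and Csf1r at 66.8. On either strand, 14 of the macrophage and myeloid genes overlap another gene, Ctss at 108 and Fcgr3 at 144 among them. The part of such overlaps in the ratios was not tested.

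The ratio of immature to double negative cells was not a single value across the genes. Among the 41 genes above 0 in all 4 libraries and averaging at least 1 RPKM in either group, it had a median of 66.9 and quartiles of 14 and 115. The lowest value was 0.529 (Lpl) and the highest 168 (C1qc), a range of 318-fold, and 18 of 41 (43.9%) lay within 2-fold of the median. The 95% counting interval held the median for 8 genes, lay above it for 15 and lay below it for 18. These intervals leave out the spread between libraries, and the median comes from the same 41 ratios. On the log2 scale the ratios had an SD of 2.08 over the 41 genes, and of 2.05 to 2.16 when 1 library of a group stood for its group, with medians of 62.8 and 68.6 from each immature library alone and 71 and 63.3 from each double negative library alone. Under median-ratio scaling the median was 53.7. What sets the spread of the ratios was not tested.

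**Figure D2:**
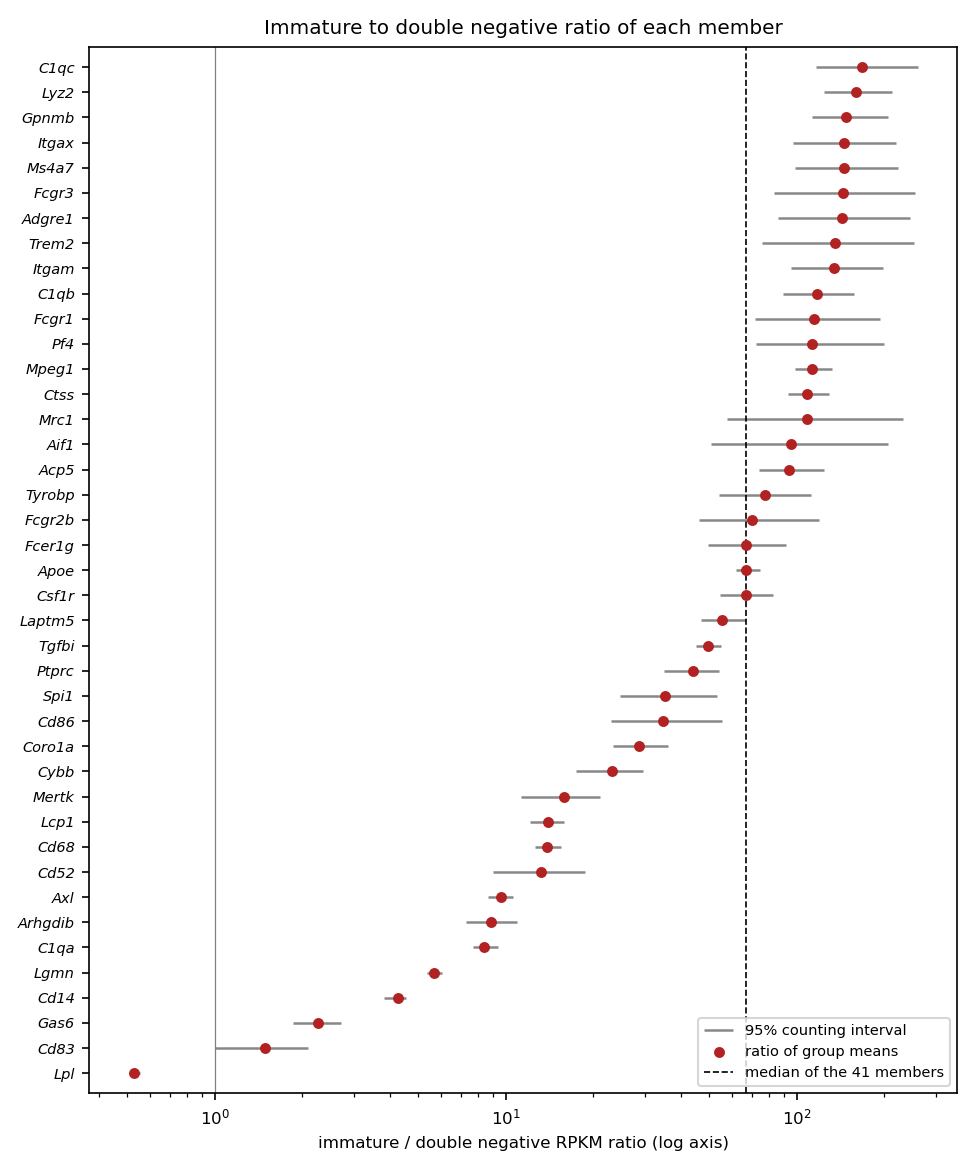
Ratio of mean RPKM in immature to double negative libraries for 41 genes (log axis), with lines for the 95% counting interval, a dashed line at the median of 66.9 and a solid line at a ratio of 1. Values run from 0.529 for Lpl to 168 for C1qc, and most intervals do not reach the dashed line.

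The genes were grouped for description by their ratio. At 90 or more stood 17 genes, which included C1qb, C1qc, Ctss, Lyz2, Mpeg1, Adgre1, Fcgr1, Fcgr3, Trem2, Itgam and Itgax. From 30 to 90 stood 10 genes, which included Csf1r, Apoe, Fcer1g, Tyrobp, Spi1 and Ptprc. Under 30 stood 15 genes, Cd163 included, among them C1qa, Cd68, Lgmn, Cd14, Mertk, Axl, Gas6, Cybb and Lpl. The bounds of 30 and 90 were chosen after the values were seen. Genes just inside the upper bound were Acp5 at 94.3 and Aif1 at 95.8, and just outside it Tyrobp at 78.

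The level in mature cells moved with the ratio. The 7 genes averaging at least 1 RPKM in mature cells (C1qa, Cd68, Lgmn, Apoe, Lpl, Cd14 and Gas6) had a median ratio of 5.64, and of these only Apoe exceeded 14, at 66.9. The 34 genes below 1 RPKM in mature cells that had a ratio gave a median of 86.2, with a range of 1.49 (Cd83) to 168 (C1qc). Low ratios also occurred at low mature levels. Arhgdib averaged 0.0356 RPKM in mature cells, Axl 0.0572, Cd52 0.0512 and Mertk 0.0135, and their ratios lay between 8.89 and 15.8. The part of the mature level in the ratio was not tested.

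**Figure D3:**
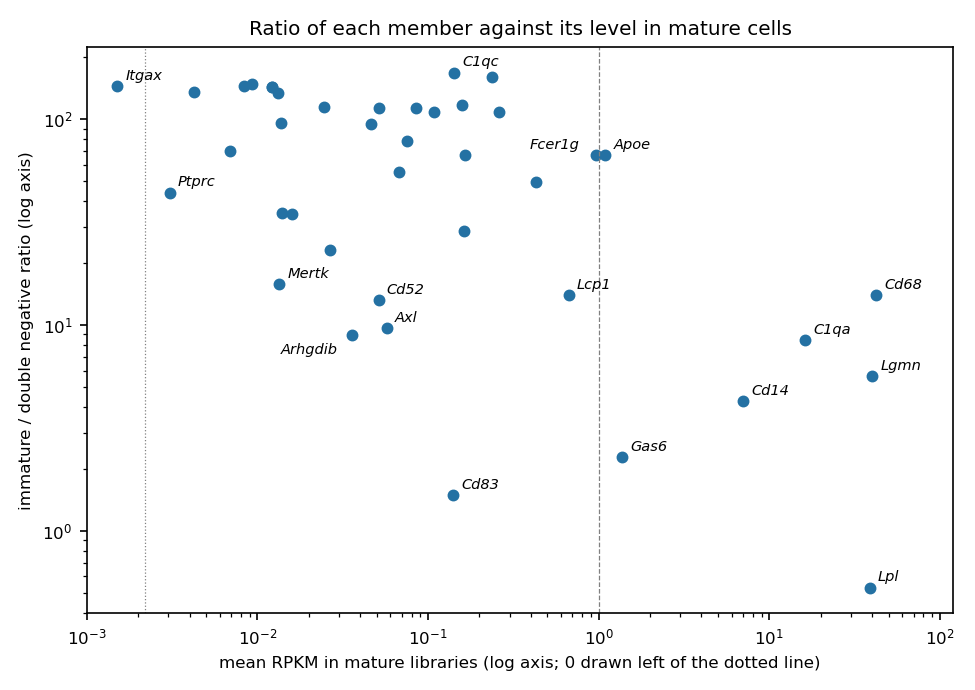
Immature to double negative ratio of 41 genes against their mean RPKM in mature libraries, both on log axes, with a dashed line at 1 RPKM. Genes to the right of the dashed line have ratios of at most 14 except Apoe at 66.9, while Cd83, Arhgdib, Axl, Cd52 and Mertk have low ratios at mature levels under 1 RPKM.

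To test gene by gene whether the difference was that of core macrophage genes, each library's mean log2(RPKM + 1) of C1qa, C1qb, C1qc, Csf1r, Adgre1 and Mpeg1 was subtracted and the same limma fit was run, with a core gene left out of its own mean. Of 41 genes, 28 were lower than the core, 11 higher and 2 (Fcgr3 and Laptm5) did not pass, against 99.5% lower and 0.127% higher of all 13367 genes. This count leans on the pseudocount and on C1qa, and the higher calls ranged from 0 to 11 over the alternatives. The ratios of the core genes themselves ran from 8.42 (C1qa) to 168 (C1qc), with a median of 115. A lower call on this scale is not always a lower ratio. Ms4a7 at 145, Itgax at 145 and Trem2 at 135 were called lower with ratios above that median. Lower than the core in every fit in which they were tested were 12 genes: C1qa, Cd68, Lgmn, Lpl, Cd14, Mertk, Axl, Gas6, Cd83, Cd52, Arhgdib and Lcp1. No gene was higher in every fit. Relative to the core, the difference of immature minus double negative was -5.68 for Lpl (SE 0.07, limma adjusted p = 5.04e-09), -3.75 for Gas6 (SE 0.11, limma adjusted p = 3.23e-08), -2.32 for Lgmn (SE 0.07, limma adjusted p = 2.6e-08), -2.05 for Arhgdib (SE 0.1, limma adjusted p = 5.24e-07) and -1.11 for Cd68 (SE 0.08, limma adjusted p = 7.29e-06). These sizes depend on the pseudocount and the fit, and over all fits they ranged from -7.76 to -5.63 for Lpl, -5.65 to -3.64 for Gas6, -4.34 to -2.27 for Lgmn, -3.68 to -1.97 for Arhgdib and -3.04 to -1.0 for Cd68.

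Macrophage genes outside the 42 were also higher in immature cells. Of 50 further genes of macrophages and monocytes, 44 were tested, and all 44 were higher in immature than in double negative cells, with a median log2 difference of 2.51, against 45.9% of all genes called higher. Of the 44, 32 reached 1 RPKM only in the immature libraries and could not have entered without being high there. Against mature cells 40 were higher, 2 lower (Lyve1 and Hpgds) and 2 did not pass (Sirpa and P2ry12). In that comparison 49.8% of all genes were called higher and 15.5% lower. Msr1, the scavenger receptor A, measured 35.7 and 30.5 RPKM in immature cells, against 0 and 0.00933 RPKM in mature cells and 0.147 and 0.264 RPKM in double negative cells. Itgb2, the beta chain that pairs with CD11b and CD11c, measured 33.9 and 36 RPKM in immature cells, against 0.304 and 0.293 RPKM in mature cells and 0.505 and 0.461 RPKM in double negative cells. The ratio to double negative cells was 161 for Msr1, 161 for Clec4n, 72.8 for Slc11a1, 72.4 for Itgb2 and 47.7 for Cd53. Over the 43 that had a ratio the median was 41.9, with a range of 2.13 (Tlr2) to 161.

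Ligands and partners of the receptors were higher in immature cells by less. Csf1, a ligand of the Csf1r product, measured 32.1 and 28.6 RPKM in immature cells, against 8.27 and 8.15 RPKM in mature cells and 11.2 and 11 RPKM in double negative cells. C3, the central complement component, measured 42.6 and 26.7 RPKM in immature cells, against 7.09 and 6.78 RPKM in mature cells and 5.17 and 5.5 RPKM in double negative cells. Of 6 tested ligands and partners, 5 were higher in immature than in double negative cells and Il34 did not pass, where 45.9% of all genes were called higher. Over the 7 ligands and partners that had a ratio, tested or not, the median was 2.73, with a range of 1.32 (Il34) to 6.5 (C3). The median of the macrophage and myeloid genes was 66.9.

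Markers of other cell types also differed between immature and double negative libraries, with other ratios. Of all genes, 45.9% were called higher in immature than in double negative cells, and of endothelial markers 12 of 12. Endothelial markers summed to 964.8 and 916.2 RPKM in immature cells, against 5.48 and 4.3 RPKM in mature cells and 222.8 and 236 RPKM in double negative cells. Their ratios lay between 2.86 (Esam) and 4.7 (Ptprb) and were all within 2-fold of their median of 4.12, a range of 1.64-fold against 318-fold for the macrophage and myeloid genes. The lists differ in size, at 12 against 41 genes, and Lpl alone sets the lower end of the 318-fold range. They also differ in reads. Over both double negative libraries, 8 of the 42 genes had 20 reads or fewer, while every endothelial marker had at least 642. Mesenchymal markers summed to 149.3 and 107 RPKM in immature cells, against 0.473 and 0.513 RPKM in mature cells and 23.6 and 29.2 RPKM in double negative cells, with a median ratio of 5.59. Acinar markers summed to 9418 and 29280 RPKM in immature cells, against 212.6 and 153.5 RPKM in mature cells and 281.1 and 2270 RPKM in double negative cells. The higher immature library exceeded the lower one by a median of 2.8 times over 11 acinar markers and of 1.12 times over the 42 macrophage and myeloid genes. The part of these cell types in the results for genes they also express, such as Axl, Gas6 and Lpl, was not tested.

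**Figure D4:**
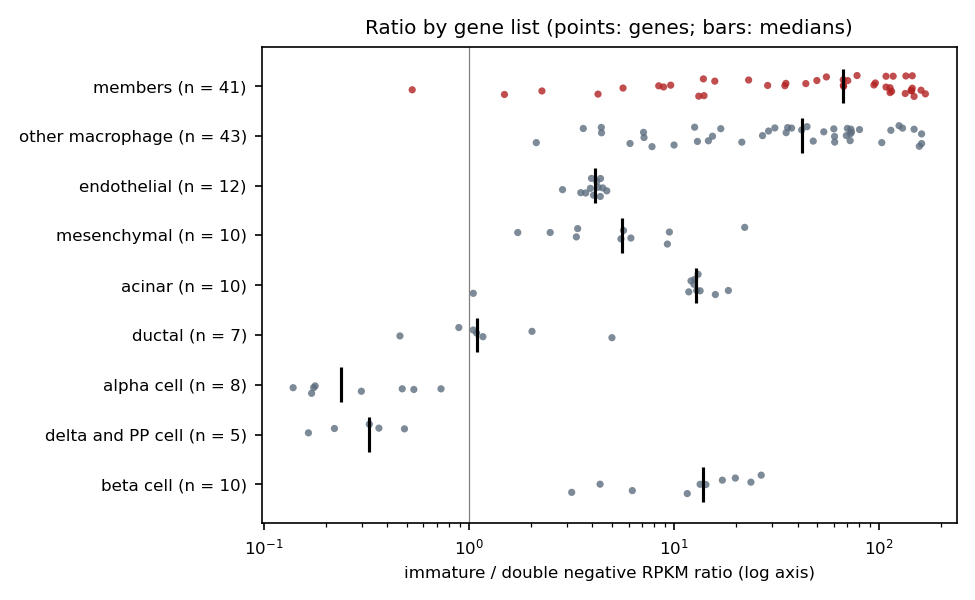
Immature to double negative ratio of single genes (points, log axis) by gene list, with bars at the medians. The macrophage and myeloid genes (red) have a median of 66.9 and the widest range, the endothelial list lies between 2.86 and 4.7, and the alpha cell list lies below 1.

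Markers of other blood cells each had their own pattern over the gates. All 5 natural killer cell markers were listed at 0 in every library. Of 9 T cell markers, 5 and 6 were listed at 0 in immature cells, against 8 and 7 in mature cells and 4 and 3 in double negative cells. The immunoglobulin light chain gene Igkc measured 113.1 and 3.27 RPKM in immature cells, against 0.0793 and 0.14 RPKM in mature cells and 69.8 and 67 RPKM in double negative cells, so the immature libraries differed widely. Of 10 neutrophil markers, 7 and 6 were listed at 0 in immature cells, against 7 and 7 in mature cells and 7 and 8 in double negative cells. The list summed to 8.08 and 13.3 RPKM in immature cells, against 81.7 and 84.9 RPKM in mature cells and 2.03 and 1.43 RPKM in double negative cells. Most of the mature sum was S100a9, a calcium-binding protein of neutrophils and monocytes, at 4.8 and 8.89 RPKM in immature cells, against 76.4 and 79.4 RPKM in mature cells and 1.65 and 0.927 RPKM in double negative cells. Csf3r, the receptor for granulocyte colony-stimulating factor, measured 2.08 and 2.89 RPKM in immature cells and was listed at 0 in the mature and double negative libraries. Against mature cells, 2 of the 4 tested neutrophil markers were lower in the immature gate (S100a8 and S100a9) and 2 higher (Csf3r and Mmp8). Of all genes, 15.5% were called lower and 49.8% higher there. Ccr2, the chemokine receptor of blood monocytes, measured 1.37 and 1.18 RPKM in immature cells, against 0 and 0 RPKM in mature cells and 0.0142 and 0.0413 RPKM in double negative cells.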

How the data were processed

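RNA sequencing measured 6 libraries of sorted mouse islet cells, 2 per gate, grouped by their titles. The authors deposited a single table of RPKM values with 1 column per library, each matched by title. Per the submitters' processing notes, the tools were STAR 2.5, featureCounts and edgeR 3.14.0, and the genome build was GRCm38.p4. Which annotation and filters were used, and what was done with multi-mapping reads, is not given in the sources used here. These values are relative to a library's total, so an abundant gene lowers all others.

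Whole reads were recovered from the RPKM steps with GENCODE M21 exon lengths of GRCm38, which also give the coordinates. For 29 of the 42 genes that length gave whole reads in all 6 libraries, and for the other 13 another length did (tolerance 1e-04 reads), which lay within 5% of it for 4 genes and between 0.65 (Lpl) and 1.27 (Itgam) times it overall. Counting intervals (95%, exact conditional) and floors of 3 reads rest on these. Some values of 0 may be failed estimates.

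With limma 3.58.1 in R 4.3.3 (intensity trend), log2(RPKM + 1) was compared between group means over 6 libraries with 3 residual degrees of freedom, for genes with at least 1 RPKM in at least 2 libraries. Tests were two-sided, with p adjusted by Benjamini-Hochberg and a threshold of 0.05. The pseudocount of 1 makes differences of low genes too small. The procedure was tested on simulated data. Alternatives were a pseudocount of 0.1, filters of 5 RPKM and none, a replicate block, each library left out, median-ratio and quantile scaling and limma's voom on recovered reads. Added after seeing the data were a core without C1qa and voom on reads from the fitted lengths.

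The 42 genes, the comparison lists and their roles were chosen with earlier results of these data known. Every gene averaging at least 5 RPKM in any group is given by library; of each other list up to 2 genes, or 6 of the further macrophage genes, with the largest called difference between immature and double negative cells were to be named. The result of 1 gene that this rule named is not reported here. Igkc, Il34, Tlr2, S100a8, Mmp8, Gp9, Itga2b and the genes that mark a range were named after their values were seen. Protein sequences were not used here.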

Additional observations from a re-analysis of the deposited data

How the results depend on the processing

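Every tested gene stayed higher in immature than in mature cells under all alternatives in which it was tested, except Cd163, which entered only without a filter and did not pass. Of immature against double negative cells, 549 of 558 alternative values kept direction and call. The exceptions were all Cd83 (log2 difference 0.40, limma adjusted p = 0.0256). It was -0.09 under quantile normalization, and lost its call in 8 further fits, which included those without mature library 1 or 2 and without double negative library 1 or 2 (adjusted p between 0.0618 and 0.121) and voom on fitted-length reads (0.424). Voom on recovered reads called 0 of 28 genes lower there, since Lpl was not among the 28. Mature against double negative cells had 33 genes lower with a pseudocount of 0.1 and 34 with voom on fitted-length reads, against 19. Spi1 lost its call in 6 fits and Csf1r in 5, in both cases without either mature library, without a filter and without double negative library 2. Relative to the core, higher genes numbered 6 with a pseudocount of 0.1, 2 with that and no C1qa, 4 with voom on recovered reads (of 28) and 0 with voom on fitted-length reads and no C1qa, against 11. Lower genes numbered 8 with voom on recovered reads and 17 on fitted-length reads, against 28. The cause was not tested.

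With 1 library left out, a lone library is assumed to vary like the others. Counts then ranged from 41 to 41 genes higher and 0 to 0 lower for immature against mature cells, 39 to 40 higher and 1 to 1 lower for immature against double negative cells, 2 to 2 higher and 17 to 26 lower for mature against double negative cells, and 10 to 11 higher and 26 to 28 lower relative to the core. The median ratio was 53.7 under median-ratio scaling, against 66.9. Scaling moved the median log2 difference of all genes for immature against mature cells to -0.074 (median-ratio) and -0.159 (quantile), against 0.285 on the deposited scale.

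Same-numbered libraries share a labelled sex and a number in their titles. Nothing in the labels ties them to a common pool, day or batch, and the deviations of same-numbered libraries correlated at -0.009 (immature with mature), 0.140 (immature with double negative) and -0.112 (mature with double negative) over 13367 genes, so they were not treated as pairs. With the replicate number as a block, 41 genes were higher in immature than mature cells, 40 higher and 1 lower than in double negative cells, 2 higher and 19 lower between mature and double negative cells, and 11 higher and 27 lower relative to the core. Spi1 between mature and double negative cells lost its call (adjusted p = 0.0763).

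Depth limits low values: 29 of the 42 genes had 20 reads or fewer over both mature libraries and 8 over both double negative libraries.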
